A study of Rattus norvegicus with 9 samples.

Results

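The 8 genes described here encode transcription factors that mark or specify segments of the nephron, the tubule that forms urine: Hnf4a, Hnf4g, Pax2, Pax8, Emx1, Tfap2b, Tfcp2l1 and Gata3. They were chosen by name, and all 8 were found among the 18420 genes of the table. Messenger RNA had been sequenced from kidney cortex of rats of the ZDF fa/fa strain, which is obese, lacks a working leptin receptor and develops diabetes. All 9 libraries were labelled diabetic and Medical Bypass, the arm that the title of the study sets against gastric bypass, and they formed 1 group of 9 replicates. The agents, doses, times, age and sex are not stated in the labels. No other group was analysed here, so no effect of treatment could be estimated, and every comparison was between replicates of the same group. Nothing in the labels says that the replicates came from separate animals, so p-values measure no more than the scatter among these libraries, part of which may be technical.

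In the nephron, filtered fluid passes from the proximal tubule through the thick ascending limb and distal convoluted tubule to the connecting tubule and the collecting duct, which holds principal and intercalated cells. Each segment keeps its own set of transporters, and lineage transcription factors keep those sets active in the adult. HNF4 factors are nuclear receptors that hold the proximal tubule programme. PAX2 and PAX8 are paired-box factors of the early renal epithelium, while AP-2 beta, TFCP2L1 and GATA3 act in the distal nephron and collecting duct.

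Each level is a read count divided by the size factor of its library, not corrected for gene length, so no order of abundance is read from the levels of different genes. Reads in genes numbered 26045365 ± 9955332 per library (SD, n = 9), from 10757440 in replicate 3 to 43071223 in replicate 8. Tubule markers fixed as lists were abundant in tissue labelled kidney cortex: the proximal marker Slc34a1 averaged 79242 ± 21463, the thick limb marker Umod 57070 ± 13125 and the principal cell marker Hsd11b2 7776 ± 3191 (SD, n = 9). The 3 matched markers of urothelium and papilla summed to between 3.981 and 21.59. Lrp2, Slc12a3 and Aqp2 were not matched by name and were not used here. Replicate 1 had the highest summed levels of thick limb, principal cell, intercalated cell, and mesangial and smooth muscle markers, and the lowest sum of proximal tubule markers. In bulk tissue, fewer cells of a type and less RNA per cell cannot be told apart.

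Promoters are shown for the 3 factors with a RefSeq window to which the results below return most, since Hnf4g, the fourth, had none. RefSeq windows of the GRCr8 assembly were matched for 6 of the 8 factors, 7 windows in all, and each holds the 250 bases before a transcription start. Capitals mark matches, on either strand, to 8 motifs. These were the TATA box written as TATAAA, the CCAAT box by those letters, the GC box as GGGCGG, the HNF1 half-site as GTTAAT, the HNF4 site as CAAAGTCC, the GATA site as AGATAA, the homeobox core as TAATTA and the AP-2 site as GCCNNNGGC. Hnf4a has 2 windows, at chr3:172605970-172606219 and chr3:172641586-172641835, Tfcp2l1 has one at chr13:32286393-32286642 and Emx1 one at chr4:119282442-119282691, all on the plus strand.
Hnf4a, window 1: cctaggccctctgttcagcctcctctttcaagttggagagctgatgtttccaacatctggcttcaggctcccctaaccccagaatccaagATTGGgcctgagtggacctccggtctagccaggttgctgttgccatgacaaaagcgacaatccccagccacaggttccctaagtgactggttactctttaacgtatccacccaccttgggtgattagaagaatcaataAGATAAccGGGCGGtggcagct
Hnf4a, window 2: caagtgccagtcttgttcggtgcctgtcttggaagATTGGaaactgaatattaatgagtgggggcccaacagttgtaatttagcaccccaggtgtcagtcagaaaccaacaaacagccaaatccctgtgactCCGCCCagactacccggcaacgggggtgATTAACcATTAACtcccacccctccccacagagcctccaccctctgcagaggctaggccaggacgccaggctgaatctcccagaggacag
Tfcp2l1: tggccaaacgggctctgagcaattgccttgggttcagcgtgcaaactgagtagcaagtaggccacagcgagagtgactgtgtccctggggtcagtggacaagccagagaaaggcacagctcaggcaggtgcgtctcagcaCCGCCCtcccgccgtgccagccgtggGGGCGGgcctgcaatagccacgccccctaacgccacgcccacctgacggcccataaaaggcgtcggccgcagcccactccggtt
Emx1: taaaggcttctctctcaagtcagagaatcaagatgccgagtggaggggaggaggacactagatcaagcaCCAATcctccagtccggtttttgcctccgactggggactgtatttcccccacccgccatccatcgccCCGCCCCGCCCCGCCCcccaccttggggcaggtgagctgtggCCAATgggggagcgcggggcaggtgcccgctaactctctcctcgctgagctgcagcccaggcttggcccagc

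The first Hnf4a window held 1 CCAAT box, 1 GATA site and 1 GC box, which begins 14 bases before the start. The second held 1 CCAAT box, 1 GC box and 2 HNF1 half-sites, which begin 90 and 83 bases before the start. A pair of GC boxes lay in the Tfcp2l1 window, 110 and 84 bases before the start. In the Emx1 window there were 2 CCAAT boxes and 3 GC boxes in tandem, each sharing a base with the next. Over all 33469 windows of this length, 30.5% held a GC box, 34% a CCAAT box, 12.9% a TATA box, 12.6% an AP-2 site, 10.3% the GATA site, 6.45% the HNF1 half-site, 4.86% the homeobox core and 1.14% the HNF4 site. These matches are descriptions of letters and do not show binding.

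Hnf4a, the nuclear receptor that maintains proximal tubule cells, was among the steadier factors. Its level was lowest in replicate 1 at 3736, had a median of 5520 and was highest in replicate 6 at 6334, with a mean of 5415 ± 792 (SD, n = 9). The other 8 replicates lay within 1.27-fold of each other, and replicate 1 stretched the range to 1.7-fold. Its paralog Hnf4g, a receptor of the same family that is also made in the proximal tubule, ran from 179.4 in replicate 5 through a median of 516.6 to 1046 in replicate 6, with a mean of 590.8 ± 348.1 (SD, n = 9). Replicates 2, 3, 6 and 9 held its 4 highest values, 960.2, 949.5, 1046 and 794, and the other 5 lay between 179.4 and 516.6.

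Within a library, where the size factor cancels, the ratio of Hnf4g reads to Hnf4a reads was 0.0345 in replicate 5 and 0.165 in replicate 6, with a median of 0.0936. This ratio differed 4.78-fold between replicates, so the 2 paralogs did not vary in proportion. The ratio compares replicates and not the abundance of the 2 transcripts, since their lengths were not used.

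Pax2 had the narrowest range of the 8 factors, from 264.2 in replicate 9 through a median of 338.4 to 384.6 in replicate 1, a 1.46-fold range around a mean of 331.6 ± 41.18 (SD, n = 9). That rank depended on the scaling and on 1 library. With libraries scaled to the same total, the range was 1.57-fold for Hnf4a and 1.72-fold for Pax2. Without replicate 1 it was 1.27-fold for Hnf4a and 1.44-fold for Pax2. The related factor Pax8, present in most renal epithelia, was lowest in replicate 3 at 2042, had a median of 3136 and reached 3644 in replicate 4, with a mean of 3032 ± 519 (SD, n = 9). Replicate 3 was also the library with the fewest reads. Across the 9 libraries Pax8 rose with the log2 number of reads in genes at a Pearson r of 0.829 (exact permutation p = 0.00659, two-sided) and a Spearman rho of 0.750 (exact p = 0.0255). Without replicates 3 and 8, the 2 libraries farthest from the median depth, r was 0.558. Whether depth had a part in the level of Pax8 was not tested further. The ratio of Pax2 to Pax8 reads within a library ran from 0.0769 in replicate 5 to 0.17 in replicate 3, with a median of 0.108.

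Among the factors of the distal nephron and collecting duct, Tfcp2l1 varied most. Its 9 values in replicate order were 2206, 3560, 3438, 1355, 772.3, 4873, 1444, 1055 and 3762, with a mean of 2496 ± 1450 (SD, n = 9). As with Hnf4g, the 4 highest values were those of replicates 2, 3, 6 and 9, and replicate 5 was the lowest. Highest over lowest came to 6.31-fold for Tfcp2l1 and 5.83-fold for Hnf4g.

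Tfap2b, which encodes AP-2 beta and is needed for distal tubule development, ran from 411.4 in replicate 5 through a median of 546.1 to 735.2 in replicate 1, with a mean of 565.3 ± 103.9 (SD, n = 9). Emx1, a homeobox factor best known from the developing forebrain, was lowest in replicate 2 at 731.8, had a median of 1018 and was highest in replicate 5 at 1644, with a mean of 1010 ± 294.6 (SD, n = 9). Replicate 5, at the top for Emx1, was at the bottom for Hnf4g, Tfap2b and Tfcp2l1.

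Gata3, a zinc finger factor of collecting duct principal cells, was lowest in replicate 4 at 296.5, had a median of 430.9 and was highest in replicate 1 at 767.1, with a mean of 460.4 ± 132.6 (SD, n = 9). Replicate 1 stood apart from the other 8, which spanned 1.78-fold against 2.59-fold with it. Gata3 is also made outside the tubule, in T lymphocytes and the mesangium among others. In the T lymphocyte list 7 of 8 markers were matched and 2 reached the level for testing. Their sum of 297.5 to 470 was mostly Cd4, and replicate 1 was not at its top. Cd3e, Cd3g and Cd3d averaged 7.535, 8.219 and 2.887, under the level for testing, and were highest in replicates 5, 4 and 1. The list therefore says little about T lymphocytes in replicate 1. The mesangial and smooth muscle list, 5 of 7 matched, summed to between 4590 and 14421, with its highest sum in replicate 1. The part of these cells in the Gata3 level was not tested.

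**Figure D1:**
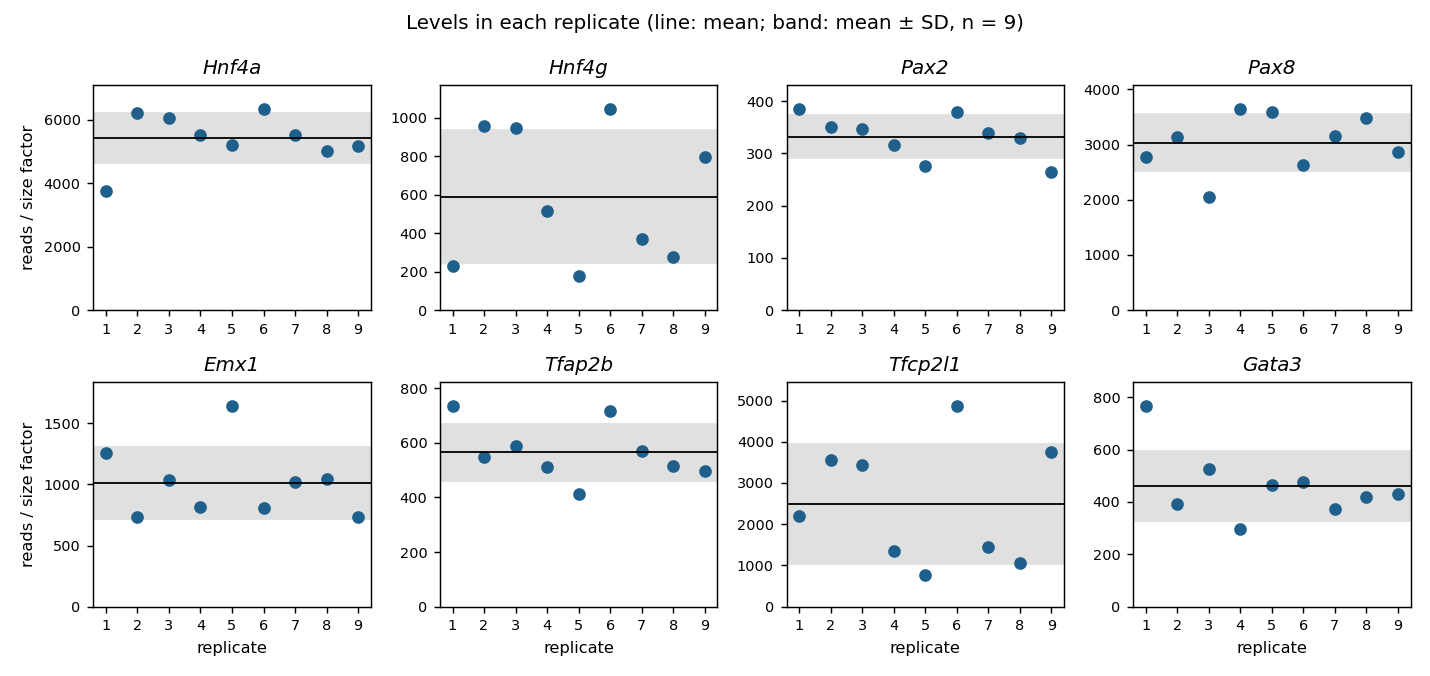
Level of each factor (reads divided by size factor, linear axis from 0) in replicates 1 to 9; points are libraries, the line is the mean and the band the mean ± SD (n = 9). Hnf4g and Tfcp2l1 are high together in replicates 2, 3, 6 and 9, Pax2 stays between 264.2 and 384.6, and Gata3 stands out in replicate 1 at 767.1.

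These ranges were set beside those of the 13647 genes with a mean level of at least 10, which included all 8 factors. Of those genes 50.5% differed at least 2-fold between their highest and lowest replicate, as did 4 of the 8 factors (Hnf4g, Emx1, Tfcp2l1 and Gata3). A range of at least 5-fold was found for 5.72% of the genes and for 2 factors, Hnf4g and Tfcp2l1.

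Whether a factor varied more than genes of like level was asked with limma, as the ratio of its variance on the log2(level + 1) scale to a trend of variance on level. The ratio was 13.99 for Tfcp2l1, above 99.7% of genes, and 12.30 for Hnf4g, above 99.6%. Emx1 stood at 2.29, Gata3 at 1.76, Pax8 at 1.10, Tfap2b at 0.91, Hnf4a at 0.78 and Pax2, the lowest, at 0.38. The median was 1.431 over the 8 factors and 1.114 over all genes. No gene passed this test after Benjamini-Hochberg adjustment over all genes (0%), while 718 genes had an unadjusted p under 0.05. Even the gene with the highest ratio, 55.11, did not pass, so the test could hardly pass any factor here. Tfcp2l1 and Hnf4g were among those 718, with unadjusted p of 0.015 and 0.0195 from limma and adjusted p of 0.938 for both. Their spread therefore did not pass the test, and count models were not used for variances.

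The high and low replicates of Hnf4g and Tfcp2l1 followed a property of the libraries, the percentage of all counted reads that had aligned at several places in the genome, called the multi-aligned share below. The share was 14.93%, 15.52%, 15.17% and 15.77% in replicates 2, 3, 6 and 9, the 4 lowest. It was 19.22% in replicate 1, 17.15% in replicate 4, 22.05% in replicate 5, 16.75% in replicate 7 and 18.39% in replicate 8. The percentage of counted reads that lay in no gene split the libraries in a similar way. It was 31.07%, 31.34%, 30.93% and 30.39% in replicates 2, 3, 6 and 9, its 4 highest. Replicate 1 came next at 30.02%, and replicate 5 was lowest at 22.03%. The relation of the factors to that percentage was not tested. Since the relation to the multi-aligned share was noticed in these data, the fit of every gene on the multi-aligned share was added after the values were seen. In the limma fit, where slopes are log2 changes per SD of the share, Hnf4g fell by 0.916 ± 0.11 (SE), with a Benjamini-Hochberg adjusted p of 0.00199, the 7th lowest p of 13647 genes. Tfcp2l1 fell by 0.770 ± 0.158 (SE; limma adjusted p = 0.00434), and Emx1 rose by 0.345 ± 0.0675 (SE; limma adjusted p = 0.00345).

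The other 5 factors did not pass, with slopes from -0.14 ± 0.0719 (SE) for Hnf4a to 0.13 ± 0.0796 (SE) for Pax8 and limma adjusted p between 0.145 and 0.574. Many genes ran with the share: 16.3% of genes tested rose with it and 18.7% fell, 35% in all, so that a count of 3 of 8 factors was near the background. Without replicate 5, 1744 of 13634 genes passed, and 2 of the 8 factors, Hnf4g and Tfcp2l1. When libraries were scaled to equal totals, 1489 genes rose and 2815 fell, against 2225 and 2549 with the size factors of the authors, and Hnf4a then passed with a slope of -0.18 (limma adjusted p = 0.0366). The median slope was -0.083 over the 8 factors and 0.016 over all genes.

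Across the 9 libraries the correlation of log2 level with the share was -0.934 for Hnf4g (exact permutation p = 4.96e-05, two-sided; Spearman rho -0.967, exact p = 0.000165). For Tfcp2l1 it was -0.822 (exact p = 0.00444; rho -0.817, exact p = 0.0108), and for Emx1 it was 0.893 (exact p = 0.00169; rho 0.850, exact p = 0.00607). The share was taken up because of the Hnf4g and Tfcp2l1 values in these same libraries, so their p-values do not test a relation fixed beforehand. Replicates 1 and 5 lay farthest from the median share, and without them r was -0.948, -0.938 and 0.566. The Emx1 relation thus rested in part on those 2 libraries, and its slope without replicate 5 was 0.214 (limma adjusted p = 0.0777). Among 17 alternatives, Hnf4g and Tfcp2l1 passed in all and Emx1 in 16. What the share reflects in the tissue or the library preparation was not tested.

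**Figure D2:**
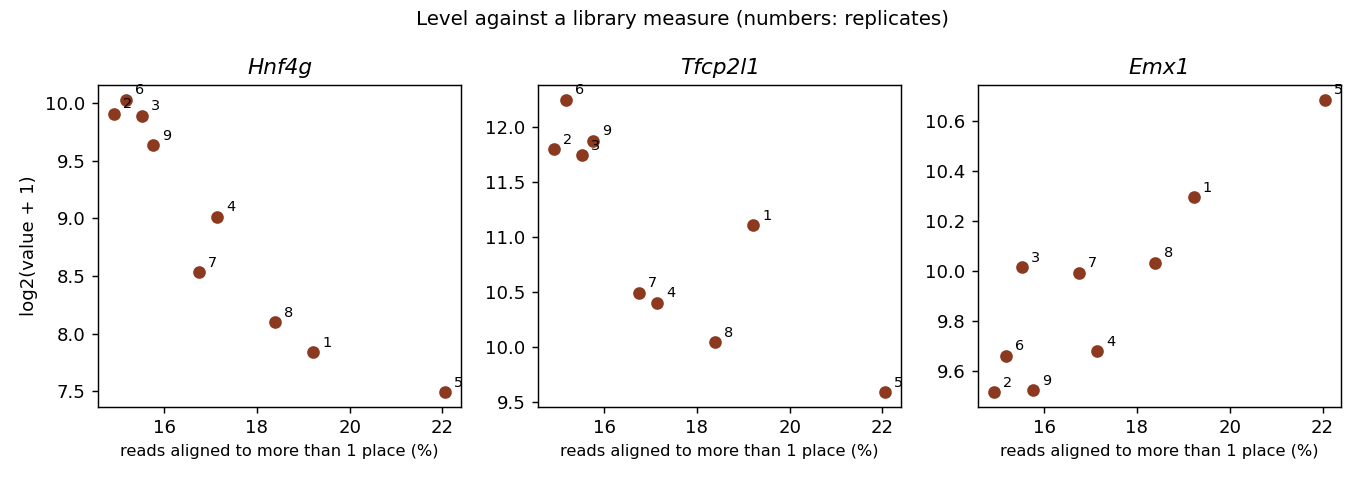
Log2(level + 1) of Hnf4g, Tfcp2l1 and Emx1 against the multi-aligned share (percent of counted reads, linear axes that do not start at 0); each point is a library, numbered by replicate. Hnf4g and Tfcp2l1 are lowest, and Emx1 highest, in replicate 5, which has the highest share at 22.05%.

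Pairs of factors were compared next, over 28 pairs, whose p-values are given without adjustment. The pairs were positive in 13 cases and negative in 15, with a median r of -0.054, so the 8 factors did not run as a block. An unadjusted exact p under 0.05 was found for 6 pairs. Pax2 and Tfap2b rose and fell together at an r of 0.876 (exact p = 0.00349) and a rho of 0.933 (exact p = 0.00075), with an r of 0.954 without the 2 replicates farthest from the median of the first-named gene, the rule used for every pair. After the share was regressed out of both genes, which was added after the values were seen, their r was 0.864.

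Hnf4g and Tfcp2l1, a proximal and a distal factor, had an r of 0.862 (exact p = 0.00696) and a rho of 0.833 (exact p = 0.00827), and 0.951 without the 2 farthest replicates. With the share regressed out, this r was 0.463. Hnf4g and Emx1 ran in opposite directions at -0.830 (exact p = 0.00474; rho -0.833, exact p = 0.00827; -0.595 without the 2 farthest), and at 0.021 with the share regressed out. Emx1 and Tfcp2l1 had an r of -0.676 (exact p = 0.0436; rho -0.733, exact p = 0.0311), which was -0.383 without the 2 farthest replicates and 0.223 with the share regressed out. All 3 of these genes were picked out by their relation to the share, so a smaller r between them after it was regressed out follows from that choice and is no separate result.

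Hnf4a and Hnf4g had an r of 0.723 (exact p = 0.0134) and a rho of 0.800 (exact p = 0.0138), with 0.705 without the 2 farthest replicates and 0.553 with the share regressed out. Pax8 and Tfcp2l1 opposed each other at -0.727 (exact p = 0.0209; rho -0.767, exact p = 0.0214; -0.763 without the 2 farthest), and at -0.632 with the share regressed out. Pax2 and its relative Pax8 had an r of -0.401 (exact p = 0.283; rho -0.60, exact p = 0.0968; -0.540 without the 2 farthest). Pairs outside those 6 also changed when the share was regressed out, and the 4 that then lay farthest from 0 are given with no test. Pax8 and Gata3 went from -0.549 to -0.814, Tfcp2l1 and Gata3 from 0.239 to 0.813, Pax8 and Emx1 from 0.141 to -0.804, and Tfap2b and Gata3 from 0.549 to 0.743.

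**Figure D3:**
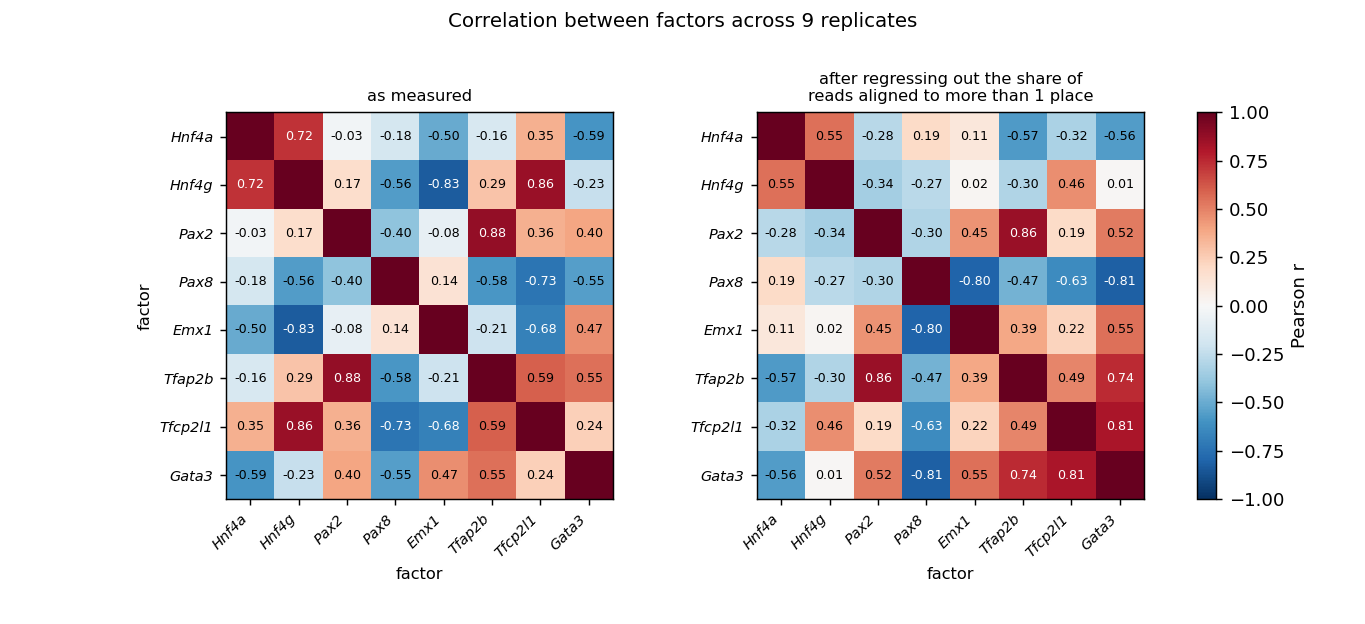
Pearson r between the log2 levels of each pair of factors over 9 replicates, as measured (left) and after the multi-aligned share was regressed out (right); red is positive and blue negative. The Pax2 and Tfap2b pair is red on both sides (0.876 and 0.864), whereas Hnf4g and Emx1 go from -0.830 to 0.021.

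Whether each factor ran with the transcripts of its segment was asked with 5 marker scores, each the mean z-score of a list, scaled to an SD of 1. None of the 8 factors passed the limma test on any of them after Benjamini-Hochberg adjustment. Over all genes 0% passed on the proximal tubule, distal and intercalated cell scores, and 0.00733%, 1 gene each, on the thick ascending limb and principal cell scores. Unadjusted p under 0.05 in limma was found for 811 genes on the proximal, 3283 on the thick limb, 1446 on the distal, 1578 on the principal cell and 1378 on the intercalated cell score. edgeR, run on 8 libraries, passed 0 genes on each of the 5 scores, with 596, 2542, 858, 1276 and 1129 genes at an unadjusted p under 0.05.

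Hnf4a had a slope of 0.15 ± 0.0743 (SE) on the proximal tubule score (limma adjusted p = 0.912). Its r with that score was 0.649 (exact p = 0.085) and its rho 0.117 (exact p = 0.776). The r rested on replicate 1, which had the lowest proximal score at -2.28 and the lowest Hnf4a: without it r was -0.273, and without replicates 1 and 3, the 2 farthest, it was 0.001. Hnf4g had a slope of 0.07 ± 0.301 (SE) on the same score (limma adjusted p = 0.997).

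On the principal cell score Gata3 had a slope of 0.31 ± 0.0857 (SE; limma adjusted p = 0.312). Its r was 0.827 (exact p = 0.0151) and its rho 0.60 (exact p = 0.0968), with 0.461 without the 2 farthest replicates and 0.452 without replicate 1, whose score was 2.46. Hnf4a ran the opposite way on this score, at -0.20 ± 0.0629 (SE; limma adjusted p = 0.337). Its r was -0.857 (exact p = 0.0194) and its rho -0.467 (exact p = 0.213), with -0.138 without the 2 farthest and -0.370 without replicate 1. The intercalated cell score gave similar values: Gata3 had a slope of 0.29 ± 0.0922 (SE; limma adjusted p = 0.432) and an r of 0.776 (exact p = 0.0245; rho 0.433, exact p = 0.25; 0.346 without the 2 farthest). Hnf4a had a slope of -0.18 ± 0.0681 (SE; limma adjusted p = 0.457) and an r of -0.800 (exact p = 0.0231; rho -0.483, exact p = 0.194; -0.111 without the 2 farthest). The difference between the 2 scores was not tested, so nothing particular to principal cell markers was shown. On the proximal score Gata3 had a slope of -0.30 ± 0.0928 (SE; limma adjusted p = 0.58). These relations leaned on 1 library, and p-values over the 56 relations of factors with scores and library measures are unadjusted.

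On the distal convoluted and connecting tubule score Tfcp2l1 had a slope of 0.55 ± 0.23 (SE; limma adjusted p = 0.45). Its r was 0.590 (exact p = 0.0992) and its rho 0.60 (exact p = 0.0968), with 0.744 without the 2 farthest replicates. On the collecting duct scores its slopes were negative, -0.12 ± 0.284 (SE; limma adjusted p = 0.839) for principal cells and -0.22 ± 0.276 (SE; limma adjusted p = 0.713) for intercalated cells. Without replicate 1, the distal slopes of Tfcp2l1 and Hnf4g were 0.74 and 0.68 with limma adjusted p of 0.0318 and 0.0384, but 3595 of 13630 genes then passed. In replicates 4 to 9 alone, 3118 of 13635 genes passed, with adjusted p of 0.0455 for Tfcp2l1 and 0.0467 for Hnf4g. The distal score itself had an r of -0.536 with the multi-aligned share when replicate 1 was left out, against -0.201 with it. The 5 matched markers behind this score did not run alike. Per SD of the share Fxyd2 rose by 0.43 (limma adjusted p = 0.00226). Slc8a1, Trpv5 and Trpm6 had slopes of -0.43, -0.21 and -0.13 and Calb1 of 0.006, none of which passed. Their summed level was highest in replicate 5, where the score was -0.87, and lowest in replicate 6, where it was 0.18. Tfap2b and Emx1 had slopes of 0.13 ± 0.0885 (SE) and -0.07 ± 0.125 (SE) on the distal score (limma adjusted p = 0.523 and 0.806).

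**Figure D4:**
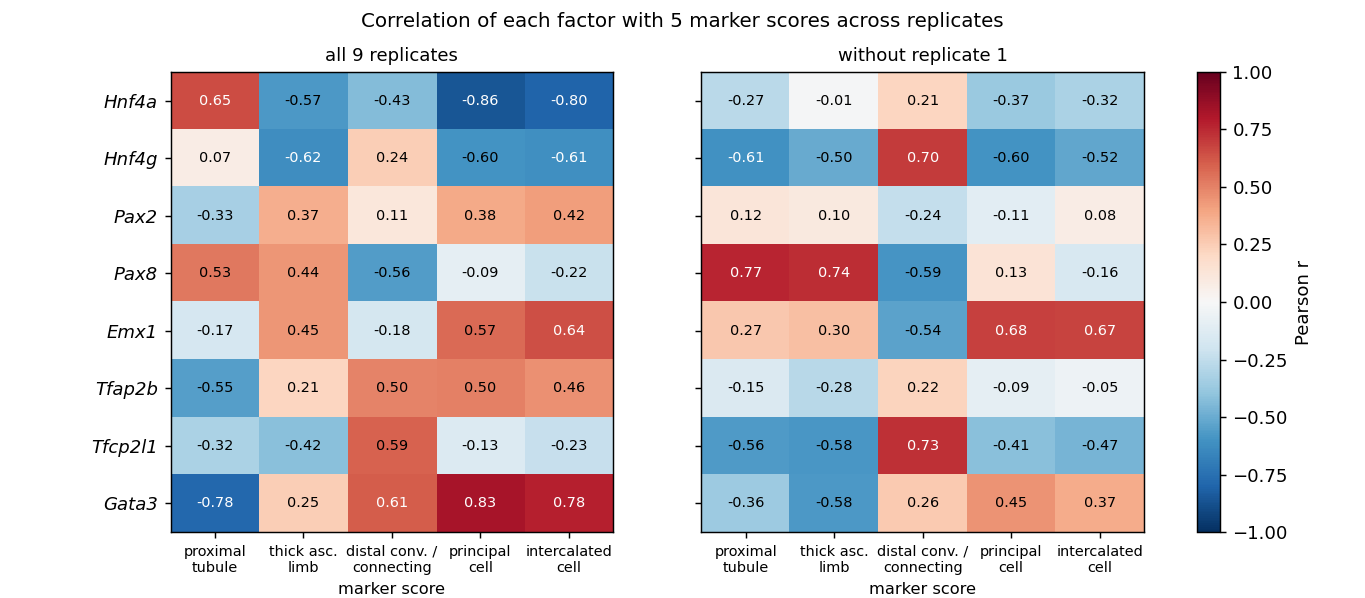
Pearson r of each factor with 5 marker scores over all 9 replicates (left) and without replicate 1 (right, added after the values were seen); red is positive and blue negative. The Hnf4a values on the proximal tubule and principal cell scores go from 0.649 to -0.273 and from -0.857 to -0.370 without that library.

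Other transcription factors of the nephron gave the wider setting. Of 36 named, 34 were matched and 30 reached a mean of 10. Among them the bile acid receptor gene Nr1h4 averaged 3100 ± 648.1 and Mecom 2758 ± 672 (SD, n = 9), while Pax5 and Pax9 each averaged under 1. Esrrg, an orphan nuclear receptor gene, had the highest variance ratio of this list at 7.68, and its levels of 335.3 to 1547 spanned 4.61-fold. Replicates 5 and 6, the lowest and highest for Tfcp2l1, were also the lowest and highest for Esrrg. On the multi-aligned share 4 of the 30 rose and 4 fell in limma, against 16.3% and 18.7% of all genes, with a median slope of 0.001 against 0.016, so these counts did not exceed the background.

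Esrrg fell by 0.62 ± 0.115 (SE; limma adjusted p = 0.00272) per SD of the share. The others that passed were named after their values were seen: Ubp1, Sim1 and Mecom fell by 0.33, 0.41 and 0.25, and Irx1, Elf3, Tcf21 and Foxc2 rose by 0.35, 0.30, 0.24 and 0.22. Tfcp2, a relative of Tfcp2l1 in the CP2 family, was singled out after its values were seen: it did not pass, at -0.05 ± 0.0513 (SE; limma adjusted p = 0.437), and its levels spanned 1.19-fold.

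For each factor the 3 genes with the most similar pattern were taken by Pearson r of log2 levels over the 9 libraries, among named genes with a mean of at least 100, with no test. Hnf4g was most like Ppp6r3, Sec23a and Isoc1, at 0.992, 0.991 and 0.989. Tfcp2l1 was most like Aff1, Hipk1 and Tgfbr3, at 0.994, 0.993 and 0.992. None of these 6 was on a nephron list. Hnf4a was most like Mgat3, Trabd2b and Lrrc8d (0.963, 0.962 and 0.954), and Gata3 most like Stim1, Pygb and Dll4 (0.966, 0.933 and 0.921).

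Pax2 was closest to Adar, Helz2 and Mbd1 (0.949, 0.946 and 0.943) and Tfap2b to Csf1, Helz2 and Gpd1l (0.953, 0.917 and 0.915). Helz2 appeared for both, but their own r was 0.876 over the same libraries, so this is no separate result. Pax8 was closest to Trappc12, Sf3b6 and Sult1a1 (0.981, 0.969 and 0.946), and Emx1 to Emc9, Srsf9 and Ssbp3 (0.982, 0.968 and 0.965). With 9 libraries searched against the whole table, the highest r is chosen for being high, and these values describe these libraries alone.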

How the data were processed

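Kidney cortex had been frozen, and stranded mRNA libraries were made from column-purified RNA, per the labels' protocols. Tools listed in the submitters' processing notes were FastQC 0.11.2 and MultiQC 0.9, then HTSeq 0.6.1p1 and DESeq2, with Rnor_5.0 as genome build. Neither aligner nor annotation was given in the sources used here. As deposited by the authors, each value is a signal: reads counted in a gene, divided by the size factor of the library and not by gene length. Division by the value of 1 read gave a whole number, to within 0.1 read, for all 149442 values that were not 0. The automatic check of this step did not accept replicate 7, whose value of 1 read, 0.9983, is close to 1, so that library was left out of the count test. Rows that count reads outside genes, in more than 1 gene or at more than 1 place (3 of 18423) were used only to describe libraries. Reads differed by more than counting error in all 36 pairs of libraries.

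Genes with a mean of at least 10 (13647) were fitted as log2(level + 1) with limma 3.58.1 in R 4.3.3, with a robust trend and Benjamini-Hochberg adjustment at 0.05. The variance test used the largest prior degrees of freedom that limma gave, a choice the plan had not fixed. Exact permutation tests ran over all pairings. edgeR 4.0.16 quasi-likelihood tests on recovered reads were an alternative. The scripts were tested on simulated data. Every simulated gene was drawn with the same dispersion, so that check does not gauge the variance test in these libraries. The 8 members, the 15 lists (129 genes, 108 matched) and the rule for named genes (the 8 factors, from each list the top 2 by level and the top one by variance ratio, and the 3 genes most like each factor) were chosen with earlier results of these data known. List genes on which no result turned are not named. Replicates 4 to 9 were run alone because replicates 1 to 3 had stood apart in those earlier results. The alternatives also covered pseudocounts of 0.5 and 5, the filter, TMM scaling, the same total per library, library size or share as a covariate, and each replicate left out.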

Additional observations from a re-analysis of the deposited data

Results flagged for a closer look

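Among 15 quantities examined for a single distant replicate (the 8 factors, the 5 scores and the 2 ratios), 3 had one, and all were the highest value in replicate 1. Chance gives about 1 in 20 for a quantity taken alone, but Gata3 ran with the 2 flagged scores (r 0.827 and 0.776). Gata3 stood at 767.1 in replicate 1, with the next highest replicate at 527.5. Factors were examined as levels, where this gap was 0.509 of the range. The gap above the lowest Hnf4a, also in replicate 1, was 0.486 and not flagged. On log2(level + 1), as in the fits, replicate 1 and the next were 9.585 and 9.046 for Gata3. For Hnf4a they were 11.868 and 12.288. As a part of the range the Hnf4a gap was then larger, so the factor flagged may depend on the scale. The principal cell score was 2.46 in replicate 1 and at most 0.24 elsewhere, and the intercalated cell score was 2.22 and at most 0.43 elsewhere. The summed level of the principal cell markers was 28538 in that library against a median of 15363, and that of the intercalated cell markers 29563 against 19374. The part of this library's make-up in its Gata3 level was not tested.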

How the results depend on the processing

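No paired analysis was possible because the labels give 1 group. Of the counts of genes and of factors passing, 224 values stayed within 1.5 times the first and 32 did not, and for 1 or 0 genes passing such moves are small. On the thick limb score the 1 gene was lost (0) with the same total per library, in replicates 4 to 9 alone, in edgeR on 8 libraries and with library size as a covariate, and leaving out each replicate gave 0 to 2. The 1 gene on the principal cell score was lost (0) with TMM scaling, the same total, replicates 4 to 9 alone, edgeR and the share as a covariate, with 0 to 1 when each replicate was left out. The variance test gave 0 to 1 genes over the replicates left out. The distal score gave 1 gene with the same total, 3118 genes and 2 factors in replicates 4 to 9 alone, and 0 to 3595 genes and 0 to 2 factors over the replicates left out. The intercalated cell score gave 14 genes with library size as a covariate. On the multi-aligned share, 3153 genes passed in replicates 4 to 9 alone, and 1744 (without replicate 5) to 4977 (without replicate 7) over the replicates left out.

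No factor that changed direction had passed the test, and the cause was not tested. The variance ratio of Pax8 fell below 1 with the same total (0.893), in replicates 4 to 9 (0.718) and without replicate 4 (0.964), and spanned 0.532 (without replicate 3) to 1.35 over the replicates left out. That of Tfap2b reached 1.42 with the same total, 1.02 in replicates 4 to 9, and 0.716 to 1.1 over the replicates left out, with 1 without replicates 2 or 9. Gata3 had a ratio of 0.856 in replicates 4 to 9 and 0.822 without replicate 1, the lowest of a range up to 2.23. On the proximal score the slopes turned to -0.0203 for Hnf4a and -0.409 for Hnf4g without replicate 1 (up to 0.187 and 0.208 without others), and to -0.381 for Hnf4g and 0.0362 for Gata3 in replicates 4 to 9. On the principal cell score they turned to -0.0037 for Pax2 without replicate 1 (up to 0.0919 without others), 0.00538 for Hnf4a in replicates 4 to 9, and 0.089 and 0.383 for Tfcp2l1 with the same total and with the share as a covariate. On the intercalated cell score Tfcp2l1 turned to 0.024 and 0.184 under the same pair of settings. Emx1 turned on the distal score to 0.0144 with the same total, 0.000222 with the share as a covariate and 0.0369 without replicate 5 (down to -0.212 without replicate 1). TMM scaling raised the median level of all genes by 0.25 on the log2 scale, and the mean of Hnf4a with it to 6442. Counting error was largest for the factors with fewest reads, such as Pax2 with 174 to 607 per library.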
